A study of Mus musculus with 12 samples.

Results

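Genes that the transcription factor NRF2 switches on, and that supply glutathione, thioredoxin and related defences, were examined in whole mouse liver. They were chosen by name (Nqo1, Gclc, Gclm, Gsr, Srxn1, Txnrd1, Hmox1, Slc7a11, Osgin1 and Gpx2), and all 10 were found among the 36528 gene IDs of the count table. Livers came from 6 mice given carbon tetrachloride (CCl4), a solvent that hepatocytes convert to a reactive radical, and from 6 mice given its corn oil vehicle. Both were injected into the peritoneum 3 times per week for 6 weeks, a regimen used to scar the mouse liver. Strain, sex, age and the dose of CCl4 were not given in the sources used here, and no mutation or transgene is named for either group.

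NRF2, the product of Nfe2l2, is kept scarce by KEAP1, an adaptor that hands it to a CUL3 ubiquitin ligase. Electrophiles and oxidants modify cysteines of KEAP1, NRF2 then accumulates, joins a small MAF protein and binds antioxidant response elements near its target genes, some of which BACH1 otherwise represses. In liver these targets sustain the glutathione that captures reactive drug metabolites, the thioredoxin system and the removal of quinones and free haem.

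Promoter sequence was at hand for 7 of the 10 members, in 9 windows of 300 bases (250 before to 50 after an annotated start, RefSeq, GRCm38.p6); Gclc, Gsr and Hmox1 had no entry. Windows were searched on both strands for the core of the antioxidant response element, TGACNNNGC, which was present in 3 of the 9 member windows and in 4071 of all 32851 windows (12.4%). The stricter form TGACTCAGC, of the same length with every base set, was in 0 of 9 and in 0.454% of all windows. A further 2 motifs were chosen after the windows had been read. TGANTCAGC, which includes TGACTCAGC, was in 2 of the 9 member windows and in 1.19% of all, and TGATGNAA, a form of the element bound by ATF4 with C/EBP partners, was in 1 of the 9 and in 3.97% of all. The 250 bases before the start are printed for the 5 genes that held a match, 5′ to 3′ on the strand of the gene, with matches to TGACNNNGC, TGANTCAGC or TGATGNAA in capitals, since 2 of these genes rose the most and the others fell or did not pass.
Srxn1 (chr2:152105274-152105523, plus strand): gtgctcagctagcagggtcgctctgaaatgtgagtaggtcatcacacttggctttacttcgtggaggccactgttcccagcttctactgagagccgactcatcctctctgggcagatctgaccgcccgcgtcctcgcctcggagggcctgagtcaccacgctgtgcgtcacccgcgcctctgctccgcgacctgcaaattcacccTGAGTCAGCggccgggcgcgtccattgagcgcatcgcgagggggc
Slc7a11 (chr3:50443614-50443863, minus strand): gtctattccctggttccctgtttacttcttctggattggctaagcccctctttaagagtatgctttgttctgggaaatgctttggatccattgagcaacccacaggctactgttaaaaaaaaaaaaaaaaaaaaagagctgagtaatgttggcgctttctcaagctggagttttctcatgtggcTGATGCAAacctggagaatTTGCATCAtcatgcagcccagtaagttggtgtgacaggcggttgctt
Gclm (chr3:122245307-122245556, plus strand): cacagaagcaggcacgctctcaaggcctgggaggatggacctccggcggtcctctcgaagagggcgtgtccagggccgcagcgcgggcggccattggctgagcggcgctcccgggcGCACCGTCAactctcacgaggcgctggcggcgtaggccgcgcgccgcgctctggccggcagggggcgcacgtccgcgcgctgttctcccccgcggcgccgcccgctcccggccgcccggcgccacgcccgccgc
Osgin1 (chr8:119436897-119437146, plus strand): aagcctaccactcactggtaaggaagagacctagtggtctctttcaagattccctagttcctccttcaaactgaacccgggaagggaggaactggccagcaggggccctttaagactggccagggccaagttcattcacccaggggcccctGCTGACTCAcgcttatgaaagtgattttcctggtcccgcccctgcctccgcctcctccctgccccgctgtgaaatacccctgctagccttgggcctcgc
Txnrd1 (chr10:82858956-82859205, plus strand): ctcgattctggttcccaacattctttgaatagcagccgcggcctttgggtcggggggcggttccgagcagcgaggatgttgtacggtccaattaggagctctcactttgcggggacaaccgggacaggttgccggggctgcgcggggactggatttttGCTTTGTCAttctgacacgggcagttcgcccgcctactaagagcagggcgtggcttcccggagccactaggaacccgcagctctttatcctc
In Srxn1 the capitals mark TGAGTCAGC, 45 to 37 bases before the start; its TGACNNNGC match lies 28 to 36 bases past the start, outside the stretch printed. Slc7a11 held TGATGCAA on each strand, at 66 to 59 and 47 to 40 bases before the start, and no match to TGACNNNGC or TGANTCAGC. Gclm matched TGACNNNGC at 134 to 126 bases and Txnrd1, in 1 of its 3 windows, at 92 to 84 bases before the start. Osgin1 held TGAGTCAGC on the opposite strand at 99 to 91 bases. No match was found for the windows of Nqo1 and Gpx2, which says only that these letters are not there, and a match is not evidence of binding.

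Total counts per library ran from 53602695 to 69203292 in the CCl4 group and from 43027778 to 70375852 in the oil group. Levels are given as CPM, each count scaled to its library's size with TMM, and differences as log2 fold changes of CCl4 over oil with a standard error (SE). Genes were tested with edgeR's quasi-likelihood test, adjusted by Benjamini-Hochberg over all 16032 genes that passed a filter on low counts, with a threshold of 0.05. Hepatocyte markers were abundant in both groups, with 6 markers summing to 91317 to 138123 CPM in CCl4 livers and 96428 to 135390 CPM in oil livers. CCl4 replicate 1 held 263 CPM of skeletal muscle transcripts and CCl4 replicate 5 held 158 CPM of pancreatic marker transcripts, above the other libraries of their group. CCl4 replicate 3 came next in the group for both, with 46.8 CPM of muscle and 59.7 CPM of pancreatic marker transcripts. Among oil livers replicate 1 held the most pancreatic marker transcripts, at 42.3 CPM against 14.9 to 24.6 CPM in the others. Libraries also differed in how counts depended on transcript length: the slope of log2 CPM on log2 length ran from -0.37 to 0.16 in CCl4 libraries and from -0.15 to 0.25 in oil libraries.

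The members did not move as a block. Srxn1, Slc7a11, Hmox1 and Nqo1 rose, Gclc, Gclm and Gsr fell, Txnrd1 and Osgin1 did not pass, and Gpx2 was below the filter. Of the 9 tested members 4 rose, where 20.6% of all tested genes did, and 3 fell, where 18.4% of all did (39% in either direction). The median log2 fold change of the 9 was 0.12 and that of all tested genes 0.01. In 2 risen members (Srxn1 and Slc7a11) all CCl4 livers lay above all oil livers, as for 12% of tested genes, and in 2 fallen members (Gclc and Gsr) all lay below, as for 8.03% (20% in either direction). In whole liver fewer cells of a type and less RNA per cell cannot be told apart.

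**Figure D1:**
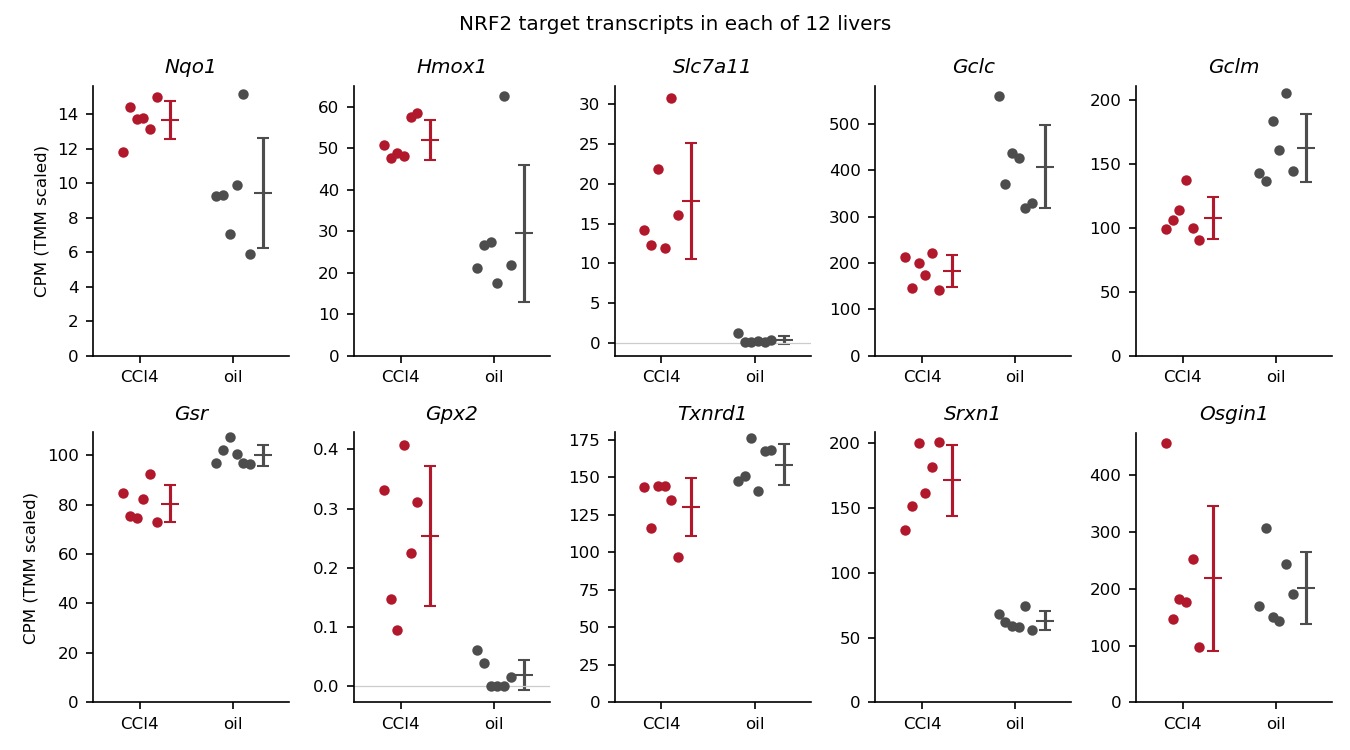
CPM of the 10 members in each liver (points; CCl4 left, oil right), with the group mean and SD beside the points. CCl4 livers stand above all oil livers for Slc7a11, Srxn1 and Gpx2 and below all of them for Gclc and Gsr, and in Hmox1 and Nqo1 oil replicate 5 lies above every CCl4 liver.

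Glutathione synthesis begins with cystine, which the antiporter xCT imports; Slc7a11 encodes its transport chain and Slc3a2 the heavy chain that carries it to the membrane. Slc7a11 (gene ID 26570, chromosome 3, 50364936 to 50499087) had the largest change of the members. It ran from 11.9 to 30.8 CPM in CCl4 livers, with a median of 15.2, and from 0.0468 to 1.22 CPM in oil livers, with a median of 0.135. The groups did not overlap, and 3 of the 6 oil libraries held only 2 or 3 counts of the gene. Slc7a11 averaged 17.9 ± 7.30 CPM in CCl4 livers and 0.319 ± 0.456 CPM in oil livers (SD, n = 6 each). The fitted log2 fold change was 5.76 ± 0.63 SE (adjusted p = 1.02e-05 with edgeR). The size of the fold depended on oil replicate 1: fitted folds were 54.1 with all libraries and 115.5 without it (adjusted p = 1.08e-06 with edgeR). In all 19 alternatives adjusted p was at most 6.50e-05. Oil replicate 1 also had the highest pancreatic marker sum of its group (42.3 CPM, against 14.9 to 24.6 CPM in the other oil livers). Among CCl4 livers that sum was highest in replicates 5 and 3 (158 and 59.7 CPM), which also had the most Slc7a11 (30.8 and 21.9 CPM). The part of pancreatic tissue in the Slc7a11 values was not tested.

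The heavy chain rose too, but less. Slc3a2 averaged 100.9 ± 19.2 CPM in CCl4 livers and 42.4 ± 2.83 CPM in oil livers (SD, n = 6 each), a log2 fold change of 1.25 ± 0.13 SE (adjusted p = 5.65e-06 with edgeR). Within each library the ratio of Slc7a11 to Slc3a2 CPM ran from 0.127 to 0.237 in CCl4 livers and from 0.00113 to 0.0305 in oil livers. The mean log2 ratio differed by 5.56 (adjusted p = 0.00649, exact two-sided permutation test over 6 against 6 livers, adjusted over 3 ratios), higher in 6 of 6 CCl4 livers than in any oil liver. With 0.1 CPM added to each gene the difference was 4.63.

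Slc7a11 is a target of ATF4, the factor of the integrated stress response, as well as of NRF2. Of 7 other ATF4 targets 4 rose and none fell at the threshold, where 20.6% and 18.4% of all tested genes did. Their median log2 fold change was 0.76. Psat1, an enzyme of serine synthesis, averaged 17.8 ± 6.37 CPM in CCl4 livers and 1.10 ± 0.597 CPM in oil livers (log2 fold change 4.03 ± 0.34 SE). Trib3, a pseudokinase induced by amino acid shortage, was at 23.0 ± 6.76 CPM in CCl4 livers and 4.02 ± 0.875 CPM in oil livers (log2 fold change 2.51 ± 0.22 SE). Asns, Atf3 and Sesn2, chosen after their values were seen as the 3 that did not pass, had log2 fold changes of 0.44, -0.52 and -0.46. The element TGATGNAA, of which Slc7a11 holds 2 copies, was present in 4 of the 8 promoter windows of these 7 genes and in 3.97% of all windows, and it was chosen after windows had been read. TGACNNNGC was present in 2 of those 8 windows, in 10 of 35 windows of the other NRF2 targets and in 12.4% of all. The part of ATF4 or of NRF2 in the rise of Slc7a11 was not tested.

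Both subunits of glutamate-cysteine ligase, the rate-limiting enzyme of glutathione synthesis, fell. Gclc, the catalytic subunit (gene ID 14629, chromosome 9, 77754535 to 77794489), ran from 142 to 222 CPM in CCl4 livers, with a median of 187, and from 319.7 to 561 CPM in oil livers, with a median of 399. No CCl4 liver reached the lowest oil liver. Gclc averaged 183 ± 34.2 CPM in CCl4 livers and 407 ± 89.2 CPM in oil livers (SD, n = 6 each), and its log2 fold change was -1.16 ± 0.17 SE (adjusted p = 0.000103 with edgeR). Gclm, the modifier subunit (gene ID 14630, chromosome 3, 122245487 to 122267215), ran from 90.6 to 138 CPM in CCl4 livers, with a median of 103.0, and from 137 to 205 CPM in oil livers, with a median of 153. A single CCl4 liver, at 137.7 CPM, stood above the lowest oil liver, at 137.1 CPM. The log2 fold change of Gclm was -0.59 ± 0.14 SE (adjusted p = 0.00385 with edgeR).

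The modifier subunit fell less than the catalytic subunit. The ratio of Gclm to Gclc CPM had a median of 0.601 in CCl4 livers (0.449 to 0.791) and 0.399 in oil livers (0.256 to 0.642). The mean log2 ratio was higher by 0.56 in CCl4 livers, and the ranges of the groups overlapped (adjusted p = 0.0281, exact two-sided permutation test, n = 6 each, adjusted over 3 ratios). This call was lost on leaving out any of 3 CCl4 livers (replicates 2, 4 and 6) or 3 oil livers (replicates 1, 2 and 4) (adjusted p = 0.0519 to 0.0563), when the difference was 0.43 to 0.54.

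Gss, glutathione synthetase, which completes the tripeptide, went the other way. Gss was chosen after its values were seen, and averaged 195 ± 61.2 CPM in CCl4 livers and 74.5 ± 16.6 CPM in oil livers (log2 fold change 1.39 ± 0.21 SE, adjusted p = 0.000138 with edgeR). Cth, which makes cysteine in the transsulfuration pathway, averaged 262 ± 80.8 CPM in CCl4 livers and 767 ± 165 CPM in oil livers (log2 fold change -1.55 ± 0.21 SE). The fall of Gclc was measured in livers whose pericentral hepatocyte markers also fell. All 8 such markers fell, and their sum ran from 733 to 1425 CPM in CCl4 livers and from 7936 to 9617 CPM in oil livers, with the P450 enzyme Cyp2e1 the highest in both and no marker at 0. Of 7 periportal hepatocyte markers 4 fell and 1 rose, with sums of 2582 to 4370.1 CPM in CCl4 livers and 4470.3 to 8243 CPM in oil livers. The part of these cells in the result was not tested.

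Gsr, glutathione reductase, turns glutathione disulfide back to glutathione with NADPH (gene ID 14782, chromosome 8, 33653238 to 33698162). It ran from 73.1 to 92.3 CPM in CCl4 livers, with a median of 78.7, and from 96.3 to 107 CPM in oil livers, with a median of 98.7. The groups lay apart, by a small step. The log2 fold change was -0.31 ± 0.10 SE, a 1.24-fold lower level (adjusted p = 0.0201 with edgeR). Gsr did not pass with upper-quartile scaling (log2 fold change -0.19, adjusted p = 0.126) or with no filter on low counts (adjusted p = 0.0547), and adjusted p ran from 0.000113 to 0.126 over 19 alternatives. Upper-quartile scaling places the median of all tested genes at 0.13.

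**Figure D2:**
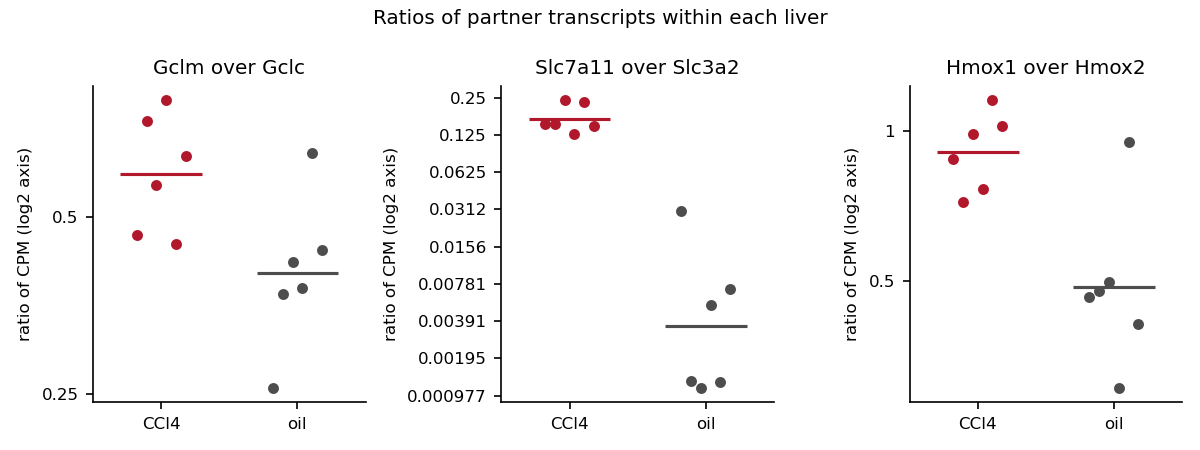
Ratio of CPM of 2 partner transcripts in each liver on a log2 axis (points; CCl4 left, oil right; lines are geometric means). The groups do not overlap for Slc7a11 over Slc3a2; oil replicate 5, at 0.642 and 0.953, lies among the CCl4 livers for Gclm over Gclc and for Hmox1 over Hmox2.

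Peroxide removal and thiol repair gave 1 clear rise. Srxn1 encodes sulfiredoxin, which rescues peroxiredoxins whose cysteine has been over-oxidised (gene ID 76650, chromosome 2, 152105524 to 152111376). It ran from 133 to 201 CPM in CCl4 livers, with a median of 172, and from 55.7 to 74.7 CPM in oil livers, with a median of 60.5. Every CCl4 liver was above every oil liver. Srxn1 averaged 172 ± 27.5 CPM in CCl4 livers and 63.1 ± 7.16 CPM in oil livers (SD, n = 6 each), a log2 fold change of 1.44 ± 0.13 SE (adjusted p = 2.00e-06 with edgeR), and it passed in all 19 alternatives (log2 fold change 1.36 to 1.56).

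Txnrd1, the cytosolic thioredoxin reductase, did not pass (gene ID 50493, chromosome 10, 82833951 to 82897724). It ran from 97.2 to 144 CPM in CCl4 livers, with a median of 139, and from 141 to 176 CPM in oil livers, with a median of 159. The groups overlapped, 3 of 6 CCl4 livers lying below every oil liver. The log2 fold change was -0.29 ± 0.12 SE (adjusted p = 0.0779 with edgeR); with DESeq2 it passed at -0.31 (adjusted p = 0.0278), and adjusted p ran from 0.0278 to 0.296 over 19 alternatives. The span of Txnrd1 also holds Eid3 and a lncRNA gene, each under 1 CPM in both groups.

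Gpx2, a glutathione peroxidase best known from gut epithelium (gene ID 14776, chromosome 12, 76792335 to 76795554), was scarcely detected. It had 8 to 26 counts per CCl4 library and 0 to 3 counts per oil library, with 0 counts in 3 oil libraries. The sums were 99 counts in CCl4 libraries (95% exact Poisson interval 80.5 to 121) and 6 counts in oil libraries (2.20 to 13.1), intervals that cover counting error only. The lowest CCl4 liver, at 0.0958 CPM, was above the highest oil liver, at 0.0612 CPM. With no filter on low counts the fitted log2 fold change was 3.47 (adjusted p = 0.000653 with edgeR), the only setting in which Gpx2 was fitted. The pseudogene Gpx2-ps1, a near copy, had 3 counts in all CCl4 libraries and 0 in all oil libraries. Of 5 tested bile duct markers 2 rose, Epcam and Tspan8 (log2 fold changes 1.48 and 1.88), while Krt7, Krt19 and Sox9 did not pass. The 6 bile duct markers, Sox9 and Krt19 highest, summed to 19.0 to 26.5 CPM in CCl4 livers and 9.93 to 25.5 CPM in oil livers. Of 3 tested intestinal markers 2 rose, Cdh17 and Vil1 (log2 fold changes 6.16 and 0.88), while Fabp2 did not pass (0.06). Cdh17 ran from 1.25 to 3.88 CPM in CCl4 livers and from 0 to 0.0612 CPM in oil livers. The 5 intestinal markers summed to 29.6 to 101 CPM in CCl4 livers and 31.4 to 72.2 CPM in oil livers. Most of that sum was Fabp2, with means of 55.8 CPM in CCl4 livers and 53.4 CPM in oil livers. No marker of either list was at 0 in all libraries, and the part of such cells in the result was not tested.

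Hmox1, haem oxygenase 1, splits haem into biliverdin, iron and carbon monoxide (gene ID 15368, chromosome 8, 75093618 to 75100593). It ran from 47.7 to 58.6 CPM in CCl4 livers, with a median of 49.8, and from 17.4 to 62.5 CPM in oil livers, with a median of 24.3. A single oil liver, replicate 5, lay above every CCl4 liver, and the other 5 oil livers reached at most 27.3 CPM. Hmox1 averaged 51.9 ± 4.88 CPM in CCl4 livers and 29.5 ± 16.6 CPM in oil livers (SD, n = 6 each), a log2 fold change of 0.82 ± 0.26 SE (adjusted p = 0.0225 with edgeR). Without oil replicate 5 the log2 fold change was 1.18 ± 0.13 SE (adjusted p = 2.26e-05). The call was lost on leaving out oil replicate 6 (0.74, adjusted p = 0.0524) or once the length slope entered the model (0.65, adjusted p = 0.0504); adjusted p ran from 2.26e-05 to 0.0524 over 19 alternatives.

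Hmox2, the constitutive haem oxygenase, averaged 57.2 ± 6.76 CPM in CCl4 livers and 55.4 ± 6.52 CPM in oil livers (adjusted p = 0.775 with edgeR). The ratio of Hmox1 to Hmox2 CPM had a median of 0.934 in CCl4 livers and 0.471 in oil livers, and the mean log2 ratio was higher by 0.91 (adjusted p = 0.0130, exact two-sided permutation test, n = 6 each, adjusted over 3 ratios). Macrophages carry much Hmox1, and 8 of 9 macrophage markers rose. Their sum, with Lyz2 the highest in both groups, ran from 439 to 651 CPM in CCl4 livers and from 153 to 214 CPM in oil livers, with no marker at 0. Oil replicate 5 had the highest macrophage marker sum of its group (214 CPM). That sum rested on Lyz2, at 115 CPM against 58.6 to 71.2 CPM in the other oil livers. Oil replicate 5 was not the highest oil liver for any other macrophage marker and was the lowest for Csf1r, at 26.9 CPM. It held 8.06 CPM of Cd68 (group range 7.61 to 11.5 CPM) and 15.2 CPM of Adgre1 (10.6 to 15.8 CPM). Of 5 markers of Kupffer cells, the resident macrophages, it was the highest oil liver for Vsig4 (28.6 CPM) and Cd5l (109 CPM). For Timd4 it was the lowest (5.07 CPM). Its Kupffer cell marker sum was 251 CPM, against 157 to 262 CPM in the other oil livers. Oil replicate 5 had the highest red cell marker sum of its group (530.0 CPM, against 229 to 369 CPM in the others). Its Alas2, a marker of that list, was the lowest of the group at 120.4 CPM. The part of these cells in the result was not tested.

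Nqo1 encodes a reductase that carries quinones to hydroquinones without passing through a radical (gene ID 18104, chromosome 8, 107388225 to 107403205). It ran from 11.8 to 14.97 CPM in CCl4 livers, with a median of 13.7, and from 5.90 to 15.2 CPM in oil livers, with a median of 9.31. Oil replicate 5 was again above every CCl4 liver, while the other 5 oil livers were below them all. The log2 fold change was 0.53 ± 0.19 SE (adjusted p = 0.0391 with edgeR). Nqo1 did not pass without any of 4 CCl4 replicates (2, 3, 4 or 6) or 5 oil replicates (all but 5), nor once the length slope entered the model (0.33, adjusted p = 0.0871). Over 19 alternatives adjusted p ran from 0.00170 to 0.0911, with 0.00186 and a log2 fold change of 0.71 without oil replicate 5.

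Osgin1, a growth inhibitor induced by oxidative stress, spread the most among the CCl4 livers (gene ID 71839, chromosome 8, 119425882 to 119446257). It ran from 97.4 to 456 CPM in CCl4 livers, with a median of 179, and from 143 to 307 CPM in oil livers, with a median of 179.7. Both the highest and the lowest of the 12 livers were CCl4 livers, replicates 1 and 6. The coefficient of variation was 58.2% in CCl4 livers and 31.5% in oil livers. The log2 fold change was 0.12 ± 0.32 SE (adjusted p = 0.783 with edgeR) and turned to -0.26 without CCl4 replicate 1 (adjusted p = 0.401, and 0.401 to 0.947 over 19 alternatives). The lncRNA gene Gm32006 overlaps the Osgin1 span and averaged 10.7 CPM in CCl4 livers and 3.69 CPM in oil livers; whether counting used strand is not given in the sources used here.

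**Figure D3:**
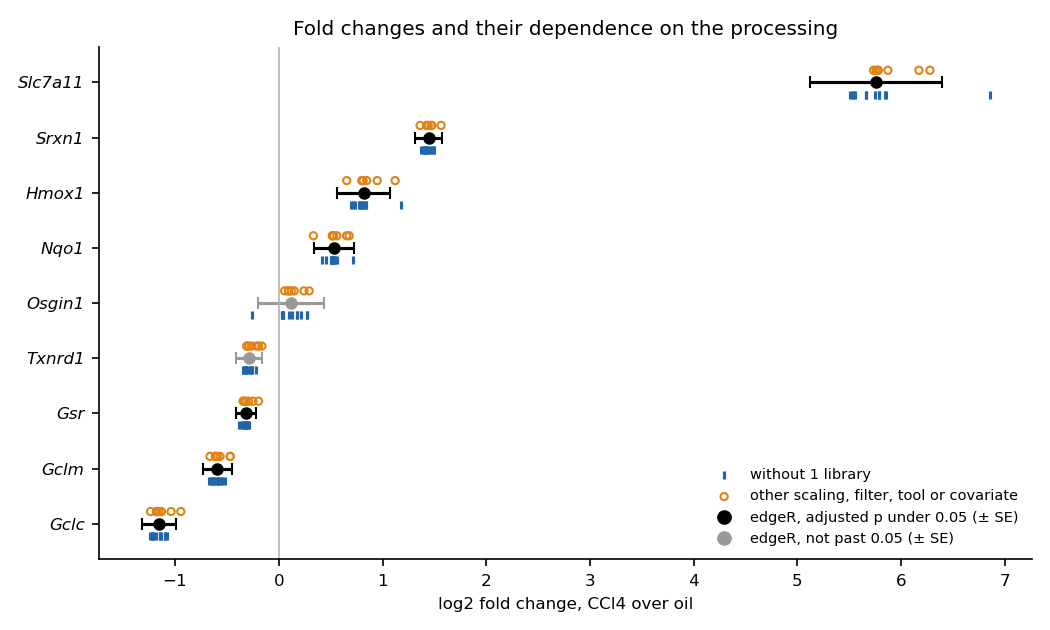
Log2 fold change of CCl4 over oil for the 9 tested members (filled points with SE; black past the threshold, grey not), with the values from leaving out 1 library (blue ticks) and from other scalings, filters, tools or the length covariate (orange circles). Osgin1 is the member with values on both sides of 0, and Slc7a11 ranges from 5.51 to 6.85.

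Per kilobase of exon the order of the members changed with CCl4. In CCl4 livers Osgin1 led with 109 ± 63.4 CPM per kb, followed by Srxn1 with 61.0 ± 9.79 and Gclc with 53.4 ± 10.003 CPM per kb (SD, n = 6), and the ranges of these 3 overlapped. Hmox1, Txnrd1 and Gsr, at 33.1, 31.9 and 30.1 CPM per kb, overlapped as well, and Gclm followed at 19.3 ± 2.96. In oil livers Gclc led with 119 ± 26.1 CPM per kb, overlapping Osgin1 with 100.1 ± 31.5. Txnrd1 and Gsr came next at 38.9 ± 3.42 and 37.4 ± 1.62 CPM per kb, then Gclm at 29.1 ± 4.81, Srxn1 at 22.4 ± 2.54 and Hmox1 at 18.8 ± 10.6. Nqo1, Slc7a11 and Gpx2 were the lowest 3 in both groups, at 8.78, 1.81 and 0.237 CPM per kb in CCl4 livers and 6.08, 0.0324 and 0.0182 CPM per kb in oil livers. Srxn1 stood at place 2 in CCl4 livers and place 6 in oil livers.

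**Figure D4:**
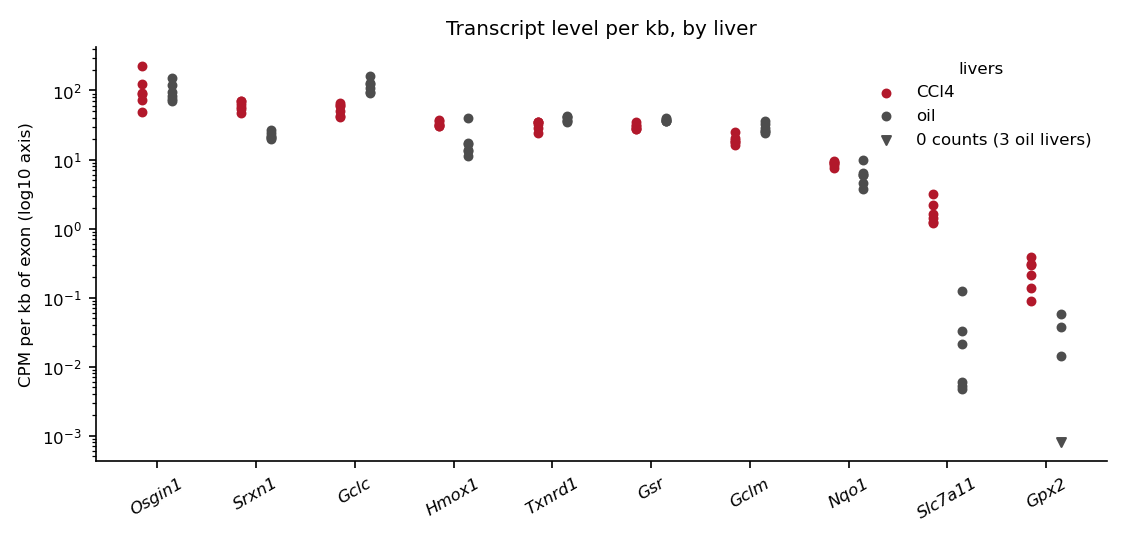
CPM per kilobase of exon on a log10 axis for each liver (CCl4 left, oil right), members ordered by their mean in CCl4 livers; the triangle marks 3 oil livers with 0 counts of Gpx2. Gclc and Osgin1 are highest in oil livers, whereas in CCl4 livers Srxn1 lies above Gclc on average.

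Within a group no pair of members passed a test of correlation. Over the 36 member pairs the median Pearson's r of log2 CPM was 0.07 in the 6 CCl4 livers and -0.02 in the 6 oil livers, and none of 72 pairs passed after adjustment (smallest adjusted p = 0.1, exact two-sided permutation test; 4 pairs had an unadjusted p under 0.05). The closest relation was an inverse one in CCl4 livers between Nqo1 and Osgin1, with r = -0.99 and Spearman's rho of -1.0 (n = 6, exact permutation p = 0.00139 and 0.00278, adjusted p = 0.1 and 0.2). Without the 2 livers farthest from the median of Nqo1 r was -0.98. The length slope of these libraries was highest in CCl4 replicates 5 and 1 (0.16 and 0.10), which also had the most Osgin1, and lowest in CCl4 replicate 6 (-0.37), which had the least Osgin1 and the most Nqo1. CCl4 replicate 6 was the highest of its group for 3 members (Nqo1, Hmox1 and Srxn1) and the lowest for 5 (Gclc, Gclm, Gsr, Txnrd1 and Osgin1). Oil replicate 5, whose slope of -0.15 was the lowest of its group, was the highest oil liver for 4 (Nqo1, Hmox1, Gclm and Srxn1) and the lowest for Gclc. The part of transcript length in these patterns was not tested.

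Genes that control NRF2 fell or did not pass. Of 10 such genes 4 fell and 0 rose, where 18.4% and 20.6% of all tested genes did, with a median log2 fold change of -0.23. Upper-quartile scaling called 2 of them risen, and limma-voom and 4 of the 12 fits without 1 library called 1. Nfe2l2, which encodes NRF2 itself, averaged 102 ± 11.1 CPM in CCl4 livers and 84.2 ± 12.4 CPM in oil livers (log2 fold change 0.28 ± 0.12 SE, adjusted p = 0.0778 with edgeR); it passed with upper-quartile scaling (0.40, adjusted p = 0.0186) and on leaving out oil replicate 1 (0.34, adjusted p = 0.0395), and adjusted p ran from 0.0186 to 0.158 over 19 alternatives. Keap1 averaged 42.7 ± 5.11 CPM in CCl4 livers and 46.8 ± 2.78 CPM in oil livers (adjusted p = 0.328). Bach1, the repressor that competes for the same elements, averaged 11.7 ± 4.91 CPM in CCl4 livers and 28.9 ± 7.96 CPM in oil livers, a log2 fold change of -1.30 ± 0.30 SE (adjusted p = 0.00330). Nfe2l1, a relative of NRF2 that answers to proteasome loss, had a log2 fold change of -0.78 ± 0.20 SE (adjusted p = 0.00710). Once the length slope entered the model these 2 stood at -0.77 and -0.48 and still passed.

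Of 29 other NRF2 targets tested, 9 rose and 7 fell, with a median log2 fold change of -0.08. Over all 105 tested genes of the pathway lists, each counted once, 23.8% rose and 21.9% fell, near the 20.6% and 18.4% of all tested genes. Gstm3, a glutathione S-transferase, averaged 680.0 ± 242 CPM in CCl4 livers and 101 ± 23.2 CPM in oil livers (log2 fold change 2.76 ± 0.27 SE); it belongs to a family of close copies among which reads may be shared. Akr1b8, an aldo-keto reductase, was at 5.94 ± 0.664 CPM in CCl4 livers and 2.32 ± 0.264 CPM in oil livers (log2 fold change 1.36 ± 0.13 SE). Cyp2a5, a P450 enzyme also with close copies, was at 59.2 ± 19.2 CPM in CCl4 livers and 391 ± 105 CPM in oil livers (log2 fold change -2.72 ± 0.24 SE), and Me1, malic enzyme, at 40.7 ± 7.73 CPM in CCl4 livers and 91.5 ± 12.9 CPM in oil livers (log2 fold change -1.17 ± 0.15 SE). Once the length slope entered the model 11 of the 29 fell. The number of all genes that fell varied as well. It ran from 2022 to 4342 across the scalings, filters, tools and the covariate, against 2951 in the main fit.

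Other glutathione genes rose in 8 of 23 and fell in 4, where 20.6% and 18.4% of all tested genes did. Their median log2 fold change was 0.27. Gpx3, the secreted glutathione peroxidase, was at 22.5 ± 2.75 CPM in CCl4 livers and 6.20 ± 1.18 CPM in oil livers (log2 fold change 1.86 ± 0.15 SE). Oplah, which recycles 5-oxoproline to glutamate, was at 69.6 ± 17.9 CPM in CCl4 livers and 145 ± 28.8 CPM in oil livers (log2 fold change -1.06 ± 0.18 SE). Once the length slope entered the model 8 of the 23 fell, while over all genes 2022 to 4342 fell across the settings named above.

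Most other thioredoxin and peroxiredoxin genes did not pass, with 2 of 17 risen and 2 fallen (20.6% and 18.4% of all tested genes). Their median log2 fold change was 0.25. Nxn, nucleoredoxin, had a log2 fold change of 1.45 ± 0.17 SE. Prdx4, the peroxiredoxin of the endoplasmic reticulum, had 0.93 ± 0.27 SE, and 0.31 once the length slope entered the model. Prdx6 had -0.52 ± 0.11 SE and Txnrd3 -0.69 ± 0.16 SE. In that model 8 of the 17 fell, a count to be read beside the same range over all genes.

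Of the enzymes that remove superoxide and hydrogen peroxide, Cat, catalase, averaged 1266 ± 251 CPM in CCl4 livers and 3515 ± 320.3 CPM in oil livers (log2 fold change -1.47 ± 0.14 SE). The mitochondrial dismutase Sod2 had a log2 fold change of -0.58 ± 0.11 SE and the secreted Sod3 of 0.53 ± 0.16 SE. Of these 4 genes 1 rose and 2 fell (median -0.40), where 20.6% and 18.4% of all tested genes did. Haem-handling genes changed in 2 of 12, where 39% of all tested genes did, with a median of 0.07. Hpx, the haem carrier haemopexin, rose (0.95 ± 0.32 SE), and the haemopexin receptor Lrp1 fell (-0.85 ± 0.26 SE), but neither passed once the length slope entered the model (adjusted p = 0.200 and 0.0518). Hpx was also lost on leaving out CCl4 replicate 6 or any of 4 oil livers (replicates 1, 3, 4 and 6) (adjusted p = 0.0547 to 0.0808). Txnrd1 and Gpx2 are selenoproteins. Of 7 genes of selenoprotein synthesis 1 rose and 3 fell (median -0.37), where 20.6% and 18.4% of all tested genes did. Sepsecs, which makes selenocysteine on its tRNA, had -1.05 ± 0.24 SE and Eefsec, its elongation factor, -0.58 ± 0.16 SE. Pstk, the kinase before Sepsecs, had 0.85 ± 0.32 SE (adjusted p = 0.0476) and did not pass in 12 of 19 alternatives, among them 9 of the 12 that leave out 1 library (adjusted p = 0.0142 to 0.935 over all).

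**Figure D5:**
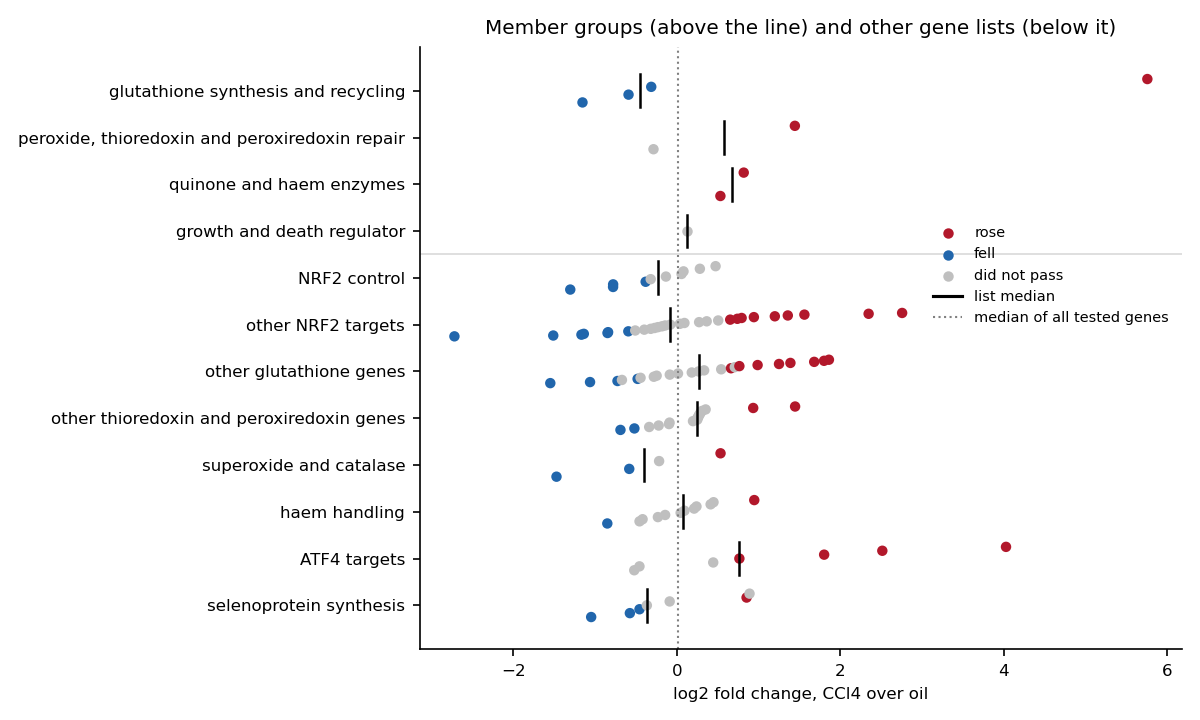
Log2 fold change of CCl4 over oil for each tested gene of the member groups (above the grey line) and of the other lists (below it); red rose, blue fell, grey did not pass, black bars are list medians and the dotted line is the median of all tested genes. Risen and fallen genes stand side by side in most lists, and among the ATF4 targets no gene fell.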

How the data were processed

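RNA of whole liver was measured in 12 mice. A stranded kit for total RNA was used, per the labels' protocols. The deposited values are raw counts for each gene ID, and all 12 columns of the series table equalled the sample files. The build was GRCm38, per the submitters' processing notes; aligner, counter, annotation and use of strand were not given in the sources used here. Groups came from the treatment labels and replicate numbers only name samples, so p-values measure the spread between these samples. Replicate pairs differed beyond sampling noise (chi-square of at least 49.4 per gene).

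Gene IDs were named from RefSeq (GRCm38.p6, 31049 IDs) and GENCODE M21 (77 IDs); 5402 unnamed IDs took 2.19% of counts. After filterByExpr and TMM scaling the counts were fitted by edgeR 4.0.16 under R 4.3.3, using robust quasi-likelihood. Log2 CPM for correlations used a prior count of 2, and lengths were the union of GENCODE exons, known for 86.6% of tested genes. The members, lists, tests and named genes were chosen with earlier results of these data known. Named genes were the members, Nfe2l2, Keap1, Bach1, the ratio partners, and in each list up to 2 risen and 2 fallen genes with the smallest p. Of the cell type markers 1 hepatocyte symbol had no ID. The alternatives tried comprised upper-quartile scaling, DESeq2 size factors, DESeq2 1.42.0, limma-voom (limma 3.58.1), no filter, 50 counts in 6 libraries, a model with the length slope, and omission of each library. The edgeR fit was tested on simulated counts with known fold changes, and the other steps were not.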

Additional observations from a re-analysis of the deposited data

Results flagged for a closer look

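Chance marks about 1 in 20 groups by the gap test used here, and 20 groups of 6 livers were examined (10 members in 2 groups), of which 2 stood out. Hmox1 in oil replicate 5 was at 62.5 CPM, against 17.4 to 27.3 CPM in the other 5 oil livers, a gap of 0.781 of the group's range where 0.625 is the critical value for 6 samples. Slc7a11 in oil replicate 1 was at 1.22 CPM, against 0.0468 to 0.324 CPM in the other oil livers, a gap of 0.764 of the range. That library also had the highest pancreatic marker sum of the oil group (42.3 CPM), and the part of such tissue was not tested.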

How the results depend on the processing

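Gclc, Gclm, Srxn1 and Slc7a11 passed in the same direction in all 19 alternatives. With upper-quartile scaling Gsr did not pass (-0.19); with no filter neither Nqo1 (0.53) nor Gsr (-0.32) passed; with DESeq2 Txnrd1 passed (-0.31). With the length slope as a covariate Nqo1 (0.33) and Hmox1 (0.65) did not pass, so 2 members rose in place of 4. The slope tended to be lower in CCl4 libraries than in oil libraries and came from the same counts. The model with it may thus also take away part of the group difference. Leaving out 1 library, Nqo1 ranged from 0.42 to 0.71 and passed in 3 of 12, Hmox1 from 0.70 to 1.18 and passed in 11 of 12, Osgin1 from -0.26 to 0.28, and the ratio of Gclm to Gclc from 0.43 to 0.70 on the log2 scale; 2 to 4 members rose and 3 fell. Hmox2, which did not pass in any setting, turned to -0.072 with the length covariate and to -0.000295 without CCl4 replicate 2, and ranged from -0.035 to 0.095 over the fits without 1 library. Promoters of 3 member genes matched TGACNNNGC, of 2 TGANTCAGC, of 1 TGATGNAA and of 0 TGACTCAGC. Haem-handling genes rose in 0 to 4 and selenoprotein synthesis genes in 0 to 2 over the alternatives. The cause of these changes was not tested. Over all genes 2722 to 4387 rose and 2022 to 4342 fell across the scalings, filters, tools and the covariate. No paired analysis was possible because the labels give no replicate number shared by the groups. Depth limits Gpx2 and the oil level of Slc7a11.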

Other observations

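Several NRF2 targets and glutathione genes outside the rule for named genes were picked out after their values were seen. Of the 4 pentose phosphate enzymes among the other NRF2 targets, G6pdx and Pgd rose, while Taldo1 (log2 fold change 0.36, adjusted p = 0.139 with edgeR) and Tkt (-0.08, adjusted p = 0.662) did not pass. G6pdx averaged 8.85 ± 2.52 CPM in CCl4 livers and 4.60 ± 0.930 CPM in oil livers (adjusted p = 0.00172 with edgeR), and Pgd 80.4 ± 14.2 CPM in CCl4 livers and 46.4 ± 9.32 CPM in oil livers (adjusted p = 0.00148 with edgeR). Cbr3, a carbonyl reductase, averaged 4.88 ± 1.51 CPM in CCl4 livers and 0.962 ± 0.397 CPM in oil livers, and Ptgr1, which reduces reactive alkenals, 14.8 ± 4.18 CPM in CCl4 livers and 5.02 ± 0.942 CPM in oil livers. Gpx7 and Gpx8, peroxidases of the endoplasmic reticulum, had log2 fold changes of 1.68 ± 0.26 and 1.80 ± 0.22 (SE). Both were measured in livers whose 8 stellate cell and myofibroblast markers all rose, with sums of 685 to 939.7 CPM in CCl4 livers and 192 to 312 CPM in oil livers; the part of those cells was not tested. The export pump Abcc4 rose (2.29-fold) while Abcc2 and Abcc3 fell (-0.84 ± 0.29 and -1.14 ± 0.19 SE).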
